A study of Homo sapiens with 8 samples.

Results

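A set of 5 transcription factors that mark cells of Mullerian duct origin and 5 antigens of ovarian carcinoma were followed across 8 RNA-seq libraries. The factors were PAX8, SOX17, WT1, EMX2 and MECOM, and the antigens were MUC16, MUC1, MSLN, FOLR1 and WFDC2. The genes were taken by symbol from the deposited table of raw counts, which lists 20339 genes, and all 10 were found.

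The libraries came from OVCAR3 and COV318, established human ovarian carcinoma lines whose labels give ascites as the tissue and epithelial as the cell type. MGP, the gene for the secreted matrix Gla protein, had been knocked out in OVCAR3 with Cas9 and a pair of guides (OVCAR3-MGPKO) or added to COV318 as a cDNA by lentivirus (COV318-MGP). The controls were OVCAR3-CTR and COV318-CTR, the latter carrying the empty vector. Knockout cells were isolated as clones, and the number of clones behind a library was not given. The transduced COV318 cells were selected as a population with puromycin, and the virus was packaged in HEK293T cells. Each of these 4 lines was sequenced as bulk, meaning adherent cells in serum, and as OCSC, the ovarian cancer stem cell fraction that grows as spheres without attachment in serum-free medium with EGF, FGF2 and B27. Bulk and OCSC therefore differed in medium as well as in growth form. The OVCAR3 libraries were of passage 4 and the COV318 libraries of passage 18. Every condition had 1 library, so no difference between conditions has a replicate check, no p-value is given, and the 95% intervals cover counting error only.

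The oviduct, uterus and upper vagina arise from the Mullerian ducts, and most high-grade serous ovarian carcinomas are thought to arise from oviduct epithelium. PAX8 and SOX17 are lineage factors of that epithelium and are used to identify such tumours, and WT1 stains serous carcinomas in the clinic. EMX2 is needed for the urogenital tract to form, and MECOM lies in a region that is often gained in serous carcinoma. The antigens are proteins of the cell surface, with WFDC2 as a secreted exception. They serve as serum markers (MUC16 as CA125, WFDC2 as HE4) or as targets of antibodies and drug conjugates (FOLR1, the folate receptor alpha, and MSLN, or mesothelin, which binds MUC16). MUC1 is a membrane mucin of most glandular epithelia.

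Libraries held between 12294591 and 37393919 counts on genes, and a floor of 3 counts corresponded to 0.0802 to 0.244 CPM. The MGP gene itself was counted 40393 times in bulk and 28694 times in OCSC of COV318-MGP, and 1 and 0 times in the controls. In the OVCAR3 libraries it had 0 to 2 counts, controls included, so MGP cannot check the knockout labels there. The COV318-MGP libraries stood apart from the other COV318 libraries. Of all 20339 genes, 49.8% in bulk and 54.0% in OCSC differed from COV318-CTR by a log2 fold change (log2FC) of at least 1 in size, close to the 53.6% and 54.7% that separated OVCAR3-CTR from COV318-CTR. They also lacked some markers of the labelled epithelial cell type. KRT7, a keratin of simple epithelia, had 0 counts in both COV318-MGP libraries against 19478 in COV318-CTR bulk and 614 in COV318-CTR OCSC. KRT19, another such keratin, had 1 and 0 counts against 17608 and 1718. KRT8 and KRT18 were still counted, at 556 and 2573 in COV318-MGP bulk. The identity of the libraries labelled COV318-MGP is therefore in question and was not tested, apart from their MGP counts. The comparisons of COV318-MGP with COV318-CTR rest wholly on them and cannot be given without them. Every other comparison was made between libraries that do not include them, apart from OCSC against bulk in COV318-MGP itself.

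**Figure D1:**
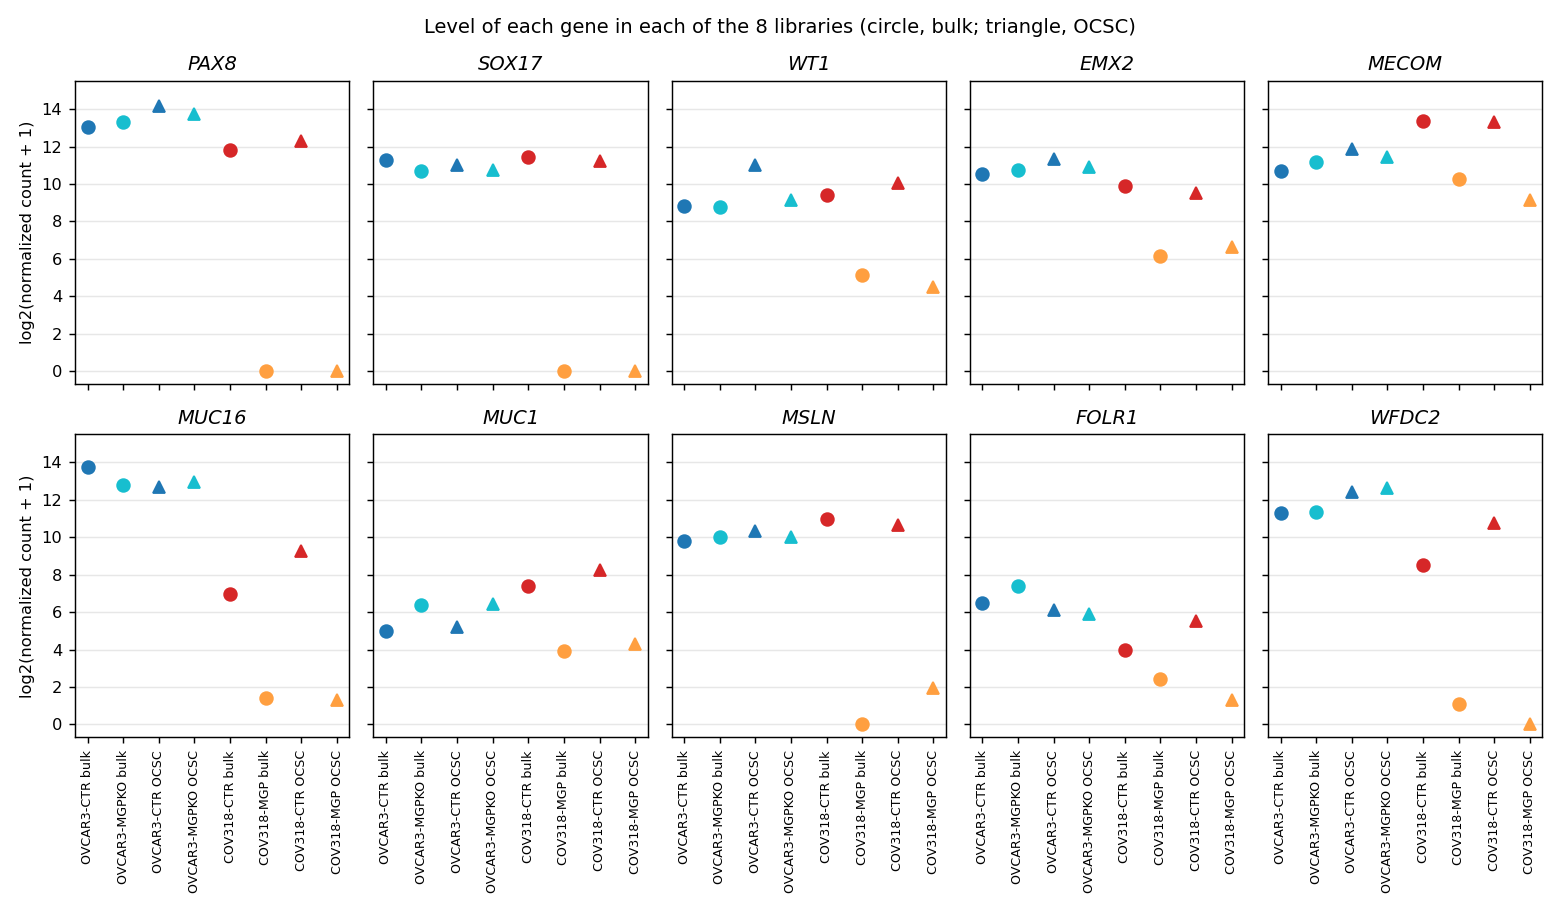
Level of each of the 10 genes as log2(normalized count + 1) in each of the 8 libraries, 1 point per library, with circles for bulk and triangles for OCSC. The orange points, COV318-MGP, lie below the red points, COV318-CTR, in all 10 panels and at 0 in both cultures for PAX8 and SOX17.

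Levels were compared between genes only per length, as RPKM (counts per kilobase of exon, scaled to the total count on genes, over the union of the exons annotated for the gene). In OVCAR3-CTR bulk, WFDC2 stood first at 92.5 RPKM, followed by PAX8 at 57.7, SOX17 at 52.1 and EMX2 at 22.8. MUC16 reached 15.4 RPKM there, and WT1, FOLR1 and MUC1 were lowest at 2.73, 2.73 and 0.639. COV318-CTR bulk was ordered differently, with SOX17 at 59.1 RPKM and MECOM at 57.0 in front of MSLN at 39.3 and PAX8 at 24.6. MUC16 was the lowest of the 10 in COV318-CTR at 0.139 RPKM in bulk and 0.768 in OCSC. WFDC2 moved from the sixth place in COV318-CTR bulk, at 13.8 RPKM, to the first in COV318-CTR OCSC, at 70.4. In the COV318-MGP libraries MECOM was the highest of the 10, at 8.19 RPKM in bulk and 3.15 in OCSC, with EMX2 next at 1.33 and 1.60 and each of the others at or under 0.363 in bulk and 0.408 in OCSC. The length of the longest transcript in place of the exon union moved several genes by 1 or more places, and put MECOM before SOX17 in COV318-CTR bulk.

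**Figure D2:**
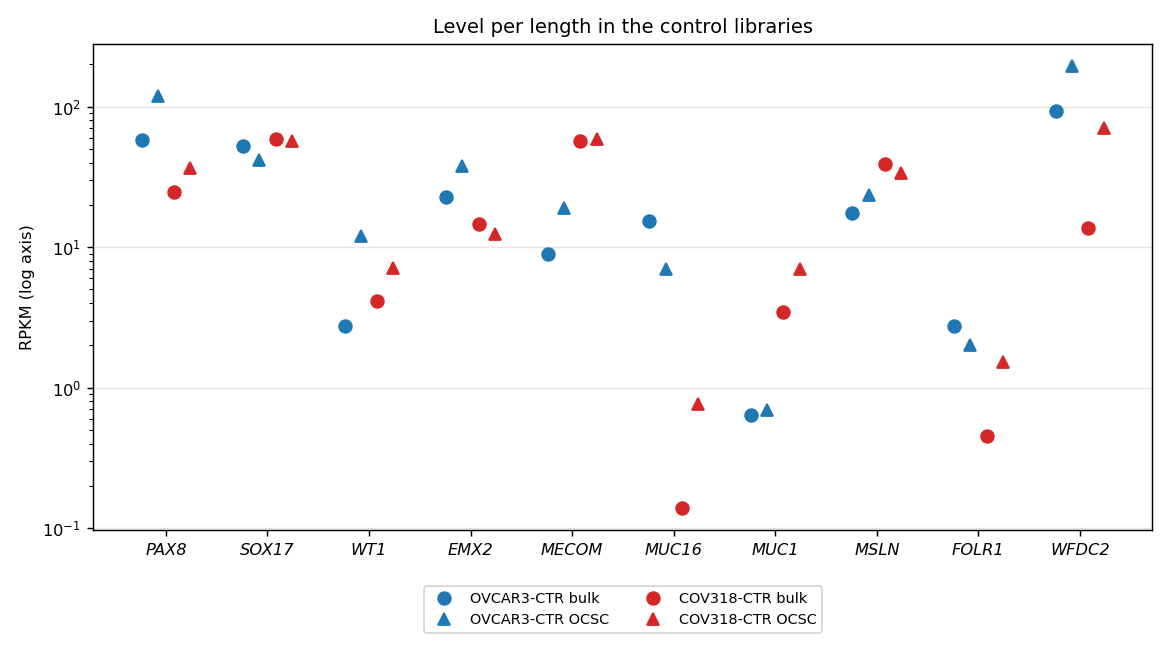
RPKM on a log axis for the 10 genes in the 4 control libraries, with circles for bulk and triangles for OCSC. The factors lie between 2.73 and 118 RPKM in every control library, whereas the antigens range from 0.139 RPKM for MUC16 in COV318-CTR bulk to 194 for WFDC2 in OVCAR3-CTR OCSC.

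By its design, the comparison of COV318-MGP with COV318-CTR asks which genes differ when MGP is expressed in a line that lacks it. In these libraries the addition of MGP and any other difference between them cannot be told apart. All 10 genes were lower in COV318-MGP, in bulk and in OCSC, by a log2FC of at least 1 in size. Among all genes tested, 25.7% in bulk and 27.3% in OCSC were lower by this measure, and 24.1% and 26.7% were higher. The median log2FC of the 10 genes was -4.92 in bulk and -6.78 in OCSC, against -0.01 and 0 over all genes. Setting genes without counts to their bounds left both medians as they were, because these genes stayed below the middle of the order. log2FC was taken on log2(normalized count + 1), which understates the change of low genes, and each interval is that of the ratio of the 2 counts. In bulk RNA such as this, fewer cells that express a gene and less of its RNA per cell cannot be told apart.

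PAX8, the paired-box factor of Mullerian and renal epithelia (ENSG00000125618.18, chr2:113215997-113278921 of hg38, minus strand), had 6778 counts in COV318-CTR bulk and 3342 in COV318-CTR OCSC. No count of PAX8 was found in either COV318-MGP library. With 3 counts taken as the floor, this is at least 2213-fold lower in bulk and at least 1156-fold lower in OCSC. SOX17, an HMG-box factor that acts with PAX8 in this lineage (ENSG00000164736.6, chr8:54457935-54460892, plus strand), had 5183 and 1632 counts in the controls and likewise 0 in both COV318-MGP libraries. Its level was at least 1692-fold lower in bulk and at least 565-fold lower in OCSC. Neither gene was detectable in COV318-MGP at this depth.

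WT1, a zinc-finger factor of the urogenital ridge and mesothelium (ENSG00000184937.16, chr11:32387775-32435564, minus strand), had 1254 counts against 61 in bulk and 710 against 15 in OCSC. The remaining level was 4.97% of control in bulk (3.78 to 6.42%) and 2.04% in OCSC (1.13 to 3.38%). EMX2, a homeobox factor (ENSG00000170370.12, chr10:117542445-117549546, plus strand), had 1779 counts in COV318-CTR bulk against 129 in COV318-MGP bulk. In OCSC it had 498 against 69. EMX2 thus stood at 7.40% of the control level in bulk (6.14 to 8.86%) and 13.3% in OCSC (10.2 to 17.2%). MECOM, a zinc-finger factor also known as EVI1 (ENSG00000085276.19, chr3:169083499-169663775, minus strand), was the factor with the most reads left, with 2261 in bulk and 387 in OCSC of COV318-MGP. Against 19726 and 6746 in the controls, this was 11.7% (11.2 to 12.2%) and 5.53% (4.98 to 6.12%) of the level. The 5 factors were therefore lower together but to different extents, from no counts for PAX8 and SOX17 to 13.3% of the control level for EMX2 in OCSC.

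Of the antigens, MSLN (ENSG00000102854.16, chr16:760734-768865, plus strand) had 3800 counts in COV318-CTR bulk and 0 in COV318-MGP bulk, at least 1240-fold lower. In OCSC 1076 counts stood against 2, which is 0.179% of the control level (0.0217 to 0.648%). WFDC2 (ENSG00000101443.18, chr20:45469753-45481532, plus strand) had 688 counts against 2 in bulk, or 0.297% of control (0.0359 to 1.08%). Its 1155 counts in COV318-CTR OCSC stood against 0, at least 400-fold lower. Both antigens were thus at or under the floor in COV318-MGP, as PAX8 and SOX17 were.

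MUC16 (ENSG00000181143.16, chr19:8848844-9010390, minus strand) was already low in COV318-CTR, with 229 counts in bulk and 417 in OCSC. COV318-MGP had 3 and 1, or 1.34% (0.274 to 3.96%) and 0.231% (0.00583 to 1.29%) of the control level. MUC1 (ENSG00000185499.17, chr1:155185824-155192916, minus strand) had 308 counts against 26 in bulk and 207 against 13 in OCSC. Its remaining level was 8.62% (5.54 to 12.9%) and 6.05% (3.17 to 10.6%). FOLR1 (ENSG00000110195.14, chr11:72189558-72196323, plus strand) had the fewest reads, with 27 counts against 8 in bulk and 30 against 1 in OCSC. It stood at 30.3% of the control level in bulk (11.9 to 68.5%) and 3.21% in OCSC (0.0787 to 19.3%). These wide intervals make the size of the FOLR1 difference uncertain, although both lie under 100%.

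**Figure D3:**
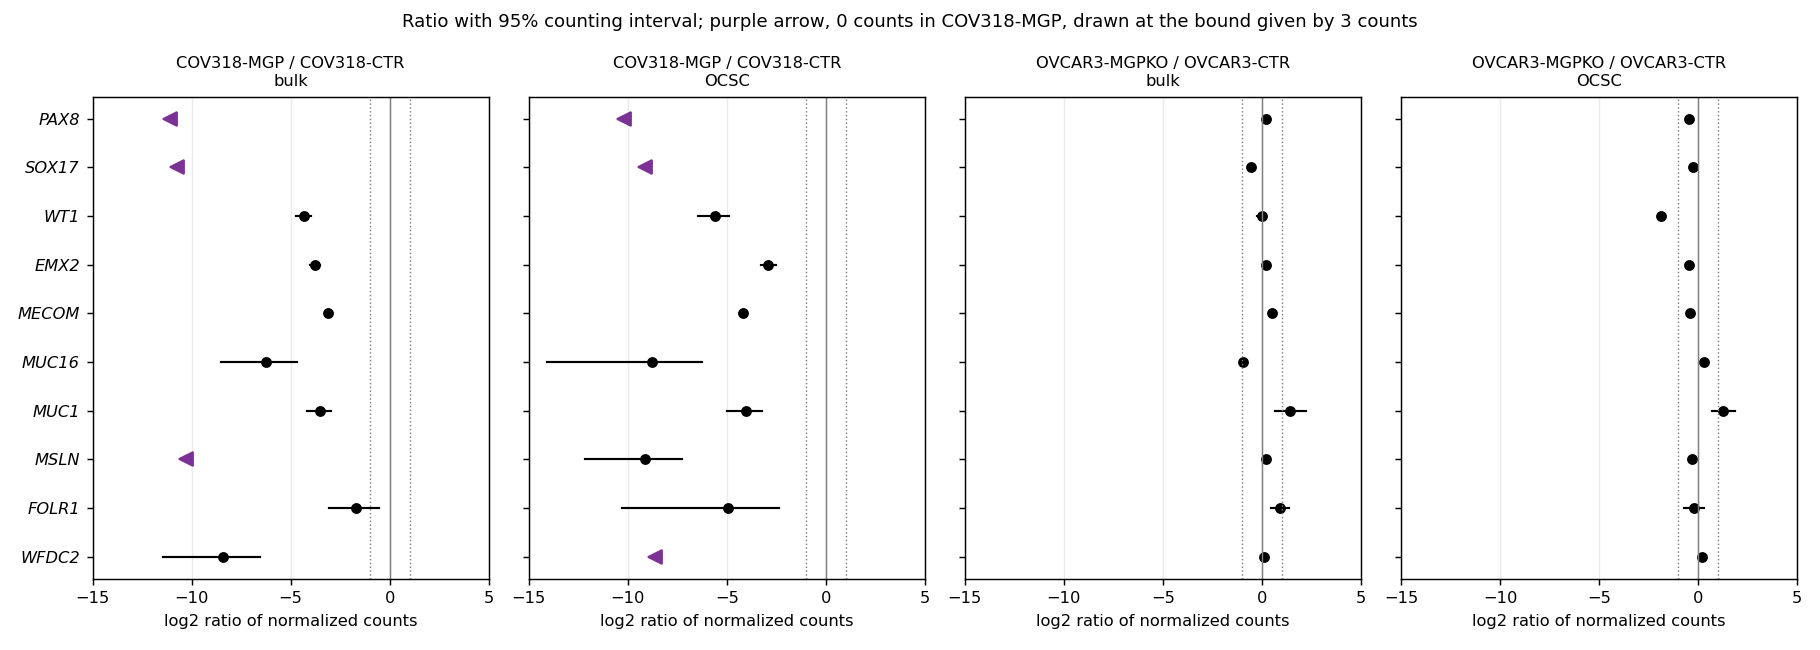
log2 ratio of normalized counts for each of the 10 genes in the 4 comparisons of an MGP-manipulated line with its control, with bars for the 95% counting interval, dotted lines at a size of 1, and purple arrows at the bound for genes with 0 counts in COV318-MGP. All points and arrows lie left of 0 in both COV318 panels, whereas most points lie within the dotted lines in the OVCAR3 panels.

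Since these genes were lower together, the sequence before their starts was examined in the RefSeq promoter table of GRCh38.p14. Of the 10 genes, 7 had an entry, and SOX17, MSLN and FOLR1 did not. The 250 bases before the start are printed 5′ to 3′ for PAX8 (chr2:113278922-113279171, minus strand), WFDC2 (chr20:45469503-45469752, plus strand), MUC1 (chr1:155192916-155193165, minus strand) and MUC16 (chr19:9010410-9010659, minus strand), as the windows nearest to the annotated gene start that hold at most 1 base of the gene itself. Capitals mark the motifs searched on both strands, namely the GC box GGGCGG, the TATA box TATAAA, the CCAAT box CCAAT, the SOX core ACAAT and the EGR/WT1 site GCGGGGGCG, where neighbouring GC boxes may share bases.
PAX8: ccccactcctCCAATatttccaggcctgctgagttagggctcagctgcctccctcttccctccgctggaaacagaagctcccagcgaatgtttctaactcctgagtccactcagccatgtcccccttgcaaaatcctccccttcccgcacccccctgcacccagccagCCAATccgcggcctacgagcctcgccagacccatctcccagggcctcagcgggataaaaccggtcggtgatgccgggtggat
WFDC2: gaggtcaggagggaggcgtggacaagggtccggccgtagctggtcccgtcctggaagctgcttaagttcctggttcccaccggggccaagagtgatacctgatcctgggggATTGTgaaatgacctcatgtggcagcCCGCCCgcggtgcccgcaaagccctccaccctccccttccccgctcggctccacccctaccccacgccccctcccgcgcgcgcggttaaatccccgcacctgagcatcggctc
MUC1: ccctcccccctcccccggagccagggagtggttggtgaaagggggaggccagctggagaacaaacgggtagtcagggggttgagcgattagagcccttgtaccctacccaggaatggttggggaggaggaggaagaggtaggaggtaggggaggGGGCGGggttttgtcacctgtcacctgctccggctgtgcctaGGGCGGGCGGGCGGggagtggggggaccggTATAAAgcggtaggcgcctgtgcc
MUC16: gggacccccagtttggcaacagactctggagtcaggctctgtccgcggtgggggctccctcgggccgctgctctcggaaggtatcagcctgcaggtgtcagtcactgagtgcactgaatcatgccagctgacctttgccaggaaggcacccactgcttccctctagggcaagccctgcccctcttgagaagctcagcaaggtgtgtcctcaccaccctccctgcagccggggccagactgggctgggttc

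The PAX8 window held 2 CCAAT boxes, a motif found in 32.0% of the 35116 RefSeq promoters. The WFDC2 window held 1 GC box (42.6% of promoters) and 1 SOX core (24.6%). In the MUC1 window 4 GC boxes and 1 TATA box (10.7%) were found, and the MUC16 window had no match. The EGR/WT1 site, present in 4.72% of promoters, was in none of these 4 windows. The observed-over-expected ratio of CpG pairs was 0.518 for PAX8, 0.687 for WFDC2, 0.451 for MUC1 and 0.238 for MUC16, beside a median of 0.558 over all promoters. No searched motif was present in all 4 windows, and the GC box was in 2 of them, WFDC2 and MUC1. Windows that are not printed held GC boxes as well, with 2 for EMX2 and 2, 0 and 1 for MECOM. WT1 had 1 in the window at chr11:32435540-32435789 and none in its other windows. Another MUC16 start, with the window chr19:9065752-9066001, had 1 GC box and 1 CCAAT box. The CpG ratios of the printed windows lay on both sides of the median. A match is a description of these letters only.

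The genes next to the 10 members on the chromosome were read in the same libraries. A pair of antisense RNA genes that overlap members was in the count table, and both were lower in COV318-MGP. WT1-AS, antisense to WT1, had 360 counts against 17 in bulk and 196 against 9 in OCSC. EMX2OS, antisense to EMX2, had 1583 against 314 and 392 against 126. WT1-AS shares 47 exon bases with WT1 and EMX2OS shares 348 with EMX2. PAX8-AS1, which is not in the table, shares 1651 bases, or 22.4% of the PAX8 exon bases. As the strand setting of the counting was not given, reads of a gene and its antisense partner cannot be told apart there.

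Of the 20 genes that lie nearest to the members on either side, 2 were higher and 8 lower in COV318-MGP bulk, and 3 were higher and 10 lower in OCSC, beside the 24.1% higher and 25.7% lower of all genes in bulk and the 26.7% and 27.3% in OCSC. Their median log2FC was -0.67 in bulk and -0.97 in OCSC, nearer to 0 than the members' medians. ZNF558, the neighbour of MUC16, had 2358 counts against 2 in bulk and 1255 against 2 in OCSC. RP1, beside SOX17, had 460 against 2 and 98 against 0. RCN1, beside WT1, was higher instead, at 2032 against 7378 in bulk and 279 against 2196 in OCSC, while EIF3M on the other side of WT1 had 9018 against 10337 in bulk, a log2FC of 0.23 (0.19 to 0.27). THBS3 and TRIM46, which flank MUC1, were both lower in bulk, by log2FC of -1.89 (-1.98 to -1.81) and -2.47 (-3.19 to -1.95). Neighbours were thus lower beside some members, as on both sides of MUC1, and higher or nearly equal beside others, as around WT1.

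Other factors of the Mullerian duct and oviduct and paralogs of the 5 members lay in both directions. Of 24 such genes in the table, 13 were higher and 5 lower in COV318-MGP bulk, and 13 were higher and 6 lower in OCSC, with a median log2FC of 1.15 and 1.67, beside 24.1% higher and 25.7% lower over all genes in bulk and 26.7% and 27.3% in OCSC. Their summed normalized count was lower in COV318-MGP, at 13729 against 8478 in bulk and 8854 against 7682 in OCSC, control first. Several of the genes higher in bulk rest on few counts, as PAX5 with 0 against 6, SOX7 with 1 against 10 and ESR1 with 1 against 4. HOXA13, a posterior homeobox gene, had 5 counts against 1677 in bulk and 9 against 738 in OCSC. HOXA11, which patterns the uterus, had 39 against 1110 and 15 against 428. PRDM16, the paralog of MECOM, had 4 against 79 and 1 against 76. HOXA10 had 367 against 2407 in bulk and 133 against 827 in OCSC, OVGP1 had 30 against 183 and 22 against 88, and PGR had 0 against 161 and 1 against 64. WNT7A, a ligand of Mullerian duct epithelium, was lower, with 1549 counts against 0 in bulk and 268 against 1 in OCSC. EMX1, the paralog of EMX2, was lower as well, with 243 against 34 in bulk and 90 against 18 in OCSC. So were LHX1, a LIM homeobox factor, with 102 against 2 and 30 against 1, and WNT4, a ligand needed for the duct to form, with 157 against 16 and 29 against 3. PAX2, the paralog of PAX8, had 0 counts in both controls and 9 and 12 in COV318-MGP.

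Other antigens of ovarian carcinoma mostly lay in the direction of the 5 followed here. Of 27 in the table, 3 were higher and 19 lower in bulk, and 3 were higher and 18 lower in OCSC, with medians of -3.27 and -4.12. Over all genes, 24.1% were higher and 25.7% lower in bulk, and 26.7% and 27.3% in OCSC. SLPI, a secreted protease inhibitor, had 76117 counts in COV318-CTR bulk and 56454 in COV318-CTR OCSC and none in COV318-MGP. CLDN16, a claudin, had 19325 and 4048 against none. CDH6, a cadherin, had 26928 counts against 5 in bulk and 1921 against 0 in OCSC, and KLK11, a kallikrein, had 1432 against 1 and 694 against 0. The antigens that were higher included STEAP1, with 5 counts against 344 in bulk and 7 against 54 in OCSC, and CD276, with 941 against 2507 and 211 against 1301.

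Cell type markers moved with these differences, and their part in the result was not tested. The counts below stand beside the same shares of all genes, 24.1% higher and 25.7% lower in bulk and 26.7% and 27.3% in OCSC. Among 12 epithelial markers, 9 were lower and 1 higher in each culture. Their summed normalized count was 43456 in COV318-CTR bulk and 2111 in COV318-MGP bulk, and 10569 and 8615 in OCSC. KRT7 and KRT19 were at or under the floor in COV318-MGP, and so were ESRP1 and ESRP2, splicing regulators of epithelia, in OCSC. KRT8 was higher in COV318-MGP OCSC at 983 counts against 106. Of 8 mesothelial markers, 5 were lower and 1 higher in bulk, and 6 lower and 1 higher in OCSC. UPK3B, a uroplakin of mesothelium, had 13158 counts against 1 in bulk and 1855 against 1 in OCSC, whereas TBX18, a T-box factor, had 0 against 1395 and 1 against 373. Their summed normalized count was 9895 against 782 in bulk and 6276 against 551 in OCSC.

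Of 9 fibroblast markers, 1 was higher and 4 lower in bulk, and 4 were higher and 2 lower in OCSC, with summed normalized counts of 5806 against 700 and 603 against 1094. COL3A1, a collagen gene, carried most of each sum, with 10409 counts against 837 in bulk and 346 against 586 in OCSC. PDGFRA, a receptor of mesenchymal cells, had 2 counts against 222 in bulk and 4 against 42 in OCSC. Among 6 blood and endothelial markers, 2 were higher and 3 lower in each culture, and the sums were 715 against 67.1 in bulk and 715 against 116 in OCSC. VWF carried most of both COV318-CTR sums, with 1231 counts against 1 in bulk and 422 against 1 in OCSC. A list of 8 genes of the HEK293 lineage was read because the virus had been packaged in such cells, and 5 were higher and 2 lower in bulk, and 6 higher and 2 lower in OCSC. NEFL, the light neurofilament chain, had no count in COV318-CTR and 2564 and 857 in COV318-MGP, and NEFM, the medium chain, had none and then 891 and 490. DPPA4, a gene of pluripotent cells on the same list, went the other way, with 19621 counts against 2 in bulk and 3614 against 0 in OCSC. The sum over this list was 12828 against 4780 in bulk and 6505 against 4631 in OCSC.

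In OVCAR3, where the knockout was compared with OVCAR3-CTR, most of the 10 genes were under the threshold. MUC1 alone differed by a log2FC of at least 1 in bulk, where 26.0% of all genes did, 15.7% higher and 10.3% lower, and WT1 and MUC1 did in OCSC, where 15.0% did, 9.16% higher and 5.81% lower. The share of members was thus below the background in bulk and near it in OCSC. The median log2FC of the 10 genes was 0.19 in bulk and -0.30 in OCSC, against 0 over all genes in both.

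PAX8 had normalized counts of 8547 in OVCAR3-CTR bulk, 9974 in OVCAR3-MGPKO bulk, 18466 in OVCAR3-CTR OCSC and 13464 in OVCAR3-MGPKO OCSC. Its log2FC was 0.22 in bulk (0.17 to 0.27) and -0.46 in OCSC (-0.49 to -0.43). SOX17 had 2456 against 1654 in bulk and 2065 against 1716 in OCSC, control first, with log2FC of -0.57 (-0.67 to -0.47) and -0.27 (-0.36 to -0.18). These differences exceeded counting error but were under the threshold. EMX2 had 1493 against 1705 in bulk and 2588 against 1901 in OCSC, and MECOM had 1655 against 2346 and 3704 against 2782. For both, the knockout was above the control in bulk, with log2FC of 0.19 and 0.50, and below it in OCSC, with -0.45 and -0.41.

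WT1 was the factor with a called difference. Its normalized count was 446 in OVCAR3-CTR bulk, 442 in OVCAR3-MGPKO bulk, 2050 in OVCAR3-CTR OCSC and 566 in OVCAR3-MGPKO OCSC, so that OVCAR3-CTR OCSC stood above the other 3 OVCAR3 libraries. The log2FC of the knockout was -0.01 in bulk (-0.23 to 0.21) and -1.86 in OCSC (-1.99 to -1.73). WT1-AS had 602 counts in OVCAR3-CTR OCSC and 309 in OVCAR3-MGPKO OCSC. WNT7A, from the list of other Mullerian factors, was also highest in OVCAR3-CTR OCSC, with 1480 counts against 59 in the knockout.

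MUC1 was the only member higher by the threshold in the knockout in both cultures. Its normalized count was 30.8 in OVCAR3-CTR bulk and 81.6 in OVCAR3-MGPKO bulk, and 35.5 and 85.7 in OCSC, from 20, 71, 38 and 98 counts. The log2FC was 1.38 in bulk (0.67 to 2.20) and 1.25 in OCSC (0.72 to 1.85), so the intervals excluded no change but not values under 1. MUC1 is nonetheless the lowest of the 10 per length in each OVCAR3 library, at 0.639 RPKM in OVCAR3-CTR bulk and 1.87 in OVCAR3-MGPKO bulk, except in OVCAR3-MGPKO OCSC if the longest transcript is used. TRIM46, whose annotated span lies 853 bases from MUC1, had 44 counts against 175 in bulk and 102 against 117 in OCSC.

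MUC16 had normalized counts of 13681 in OVCAR3-CTR bulk and 7133 in OVCAR3-MGPKO bulk, a log2FC of -0.94 (-0.99 to -0.89) just under the threshold. In OCSC it had 6566 and 7986, a log2FC of 0.28 (0.24 to 0.33). FOLR1 had 57 counts against 144 in bulk, a log2FC of 0.91 (0.46 to 1.38), and 73 against 67 in OCSC, a log2FC of -0.21 (-0.72 to 0.28). Scaled to a common library total, FOLR1 became the second member called higher in bulk. MSLN had normalized counts of 905 against 1030 in bulk and 1293 against 1024 in OCSC, and WFDC2 had 2481 against 2630 and 5484 against 6368, all within a log2FC of 0.34 in size.

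Among the other genes of the lists in OVCAR3, 3 of 24 Mullerian factors were higher and 8 lower in the knockout in bulk, and 2 were higher and 5 lower in OCSC. These counts and those below stand beside 15.7% higher and 10.3% lower of all genes in bulk, and 9.16% and 5.81% in OCSC. Of the 27 other antigens, 6 were higher and 6 lower in bulk, and 2 were higher and 5 lower in OCSC. LCN2, a lipocalin, had 1460 counts against 220 in bulk and 1076 against 329 in OCSC. KLK7 and KLK6, both kallikreins, had 115 against 45 and 619 against 278 in bulk, and 218 against 37 and 335 against 137 in OCSC. Epithelial markers were mostly under the threshold, with 1 of 12 lower in bulk and 2 in OCSC and summed normalized counts of 134064 to 272924 in the OVCAR3 libraries. Mesothelial markers were 2 higher and 2 lower of 8 in bulk and 1 lower in OCSC, and blood and endothelial markers were 2 higher and 1 lower of 6 in each culture. Of 9 fibroblast markers 5 were higher and 0 lower in each culture, with summed normalized counts of 221 against 461 in bulk and 454 against 609 in OCSC. Several of these calls rest on few counts. DCN, PDGFRB and THY1 each had 0 against 2 in OCSC, and in bulk THY1 had 1 against 8 and POSTN had 1 against 5. The HEK293 list had 2 of 8 higher in bulk and 1 in OCSC, and LIN28B, an RNA-binding protein of embryonic cells, had 7 counts against 151 in bulk and 7 against 66 in OCSC.

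OCSC were then compared with bulk cells of the same line, which asks how the 10 genes stand in the sphere-forming fraction. These comparisons share libraries with those above, so they are not independent of them. In COV318-CTR, 3 of the 10 genes were higher in OCSC and none lower, against 22.2% of all genes that differed, 12.1% higher and 10.2% lower. All 3 were antigens. MUC16 had a normalized count of 123 in bulk and 620 in OCSC, a log2FC of 2.32 (2.09 to 2.57). WFDC2 had 371 in bulk and 1716 in OCSC, a log2FC of 2.21 (2.07 to 2.35), and FOLR1 had 14.5 and 44.6, a log2FC of 1.55 (0.82 to 2.42) that rests on 27 and 30 counts. The 5 factors of COV318-CTR lay between a log2FC of -0.37 for EMX2 and 0.64 for WT1. MUC1 was just under the threshold at 0.89 (0.63 to 1.15), and it passed with a common library total, at 1.03. Cell type markers moved in the same comparison, and their part was not tested. Of 12 epithelial markers 1 was higher and 4 were lower in OCSC, and their summed normalized count went from 43456 to 10569, with KRT7 at 19478 and 614 counts and KRT18 at 36058 and 2396. The 1 that was higher, GRHL2, had only 2 counts in bulk and 3 in OCSC. Of 9 fibroblast markers 1 was higher and 5 were lower, with a sum of 5806 in bulk and 603 in OCSC, and of 8 mesothelial markers 3 were higher and 2 lower, with 9895 and 6276. COL3A1, with 10409 and 346 counts, carried most of both fibroblast sums.

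In OVCAR3-CTR, 4 of the 10 genes were higher in OCSC and 1 was lower, against 28.2% of all genes that differed, 13.2% higher and 15.0% lower. Of these, 3 were factors. WT1 had the largest log2FC of the 10 at 2.20 (2.02 to 2.38), MECOM had 1.16 (1.06 to 1.26) and PAX8 had 1.11 (1.07 to 1.15). EMX2 was at 0.79 (0.69 to 0.90) and SOX17 at -0.25 (-0.34 to -0.16), both under the threshold. WFDC2 was higher as well, by 1.14 (1.06 to 1.22). MUC16 was lower, from a normalized count of 13681 in bulk to 6566 in OCSC, a log2FC of -1.06 (-1.10 to -1.01). MUC16 therefore pointed up in COV318-CTR and down in OVCAR3-CTR, a difference between the lines that was not tested. Mesothelial markers moved in this comparison beside WT1, 5 of 8 higher and 2 lower, and their summed normalized count was 1149 in bulk and 16494 in OCSC. UPK1B, a uroplakin, made up most of it with 632 and 17101 counts, and UPK3B had 108 and 539. ITLN1, PRG4 and BNC1 had 0, 1 and 1 counts in OVCAR3-CTR bulk and 0 in OVCAR3-CTR OCSC. The 2 lower calls, PRG4 and BNC1, thus rest on 1 count each, and HP, among the higher, had 0 and 7. Of 12 epithelial markers 3 were higher and 1 lower, with sums of 163223 and 272924. The part of these markers in the result was not tested.

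In OVCAR3-MGPKO only WFDC2 was higher in OCSC, by 1.28 (1.21 to 1.34), and only FOLR1 was lower, at -1.48 (-1.94 to -1.07), against 19.8% of all genes that differed, 8.06% higher and 11.7% lower. FOLR1 had 144 counts in OVCAR3-MGPKO bulk and 67 in OVCAR3-MGPKO OCSC. The factors of OVCAR3-MGPKO lay between log2FC of 0.05 and 0.43. In COV318-MGP the threshold was passed by 4 genes of 10, against 20.7% of all genes, 10.7% higher and 9.99% lower, but in 3 of them, MSLN, FOLR1 and WFDC2, the counts were 0 to 8 and the intervals held no change. MECOM was the exception, with a normalized count of 1244 in bulk and 554 in OCSC and a log2FC of -1.17 (-1.33 to -1.01). In OVCAR3-MGPKO the epithelial sum was 134064 in bulk and 216357 in OCSC and the mesothelial sum 2460 and 11667, and in COV318-MGP they were 2111 and 8615, and 782 and 551, with their part likewise not tested. WFDC2 was thus the only one of the 10 genes higher in OCSC by the threshold in each of COV318-CTR, OVCAR3-CTR and OVCAR3-MGPKO.

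**Figure D4:**
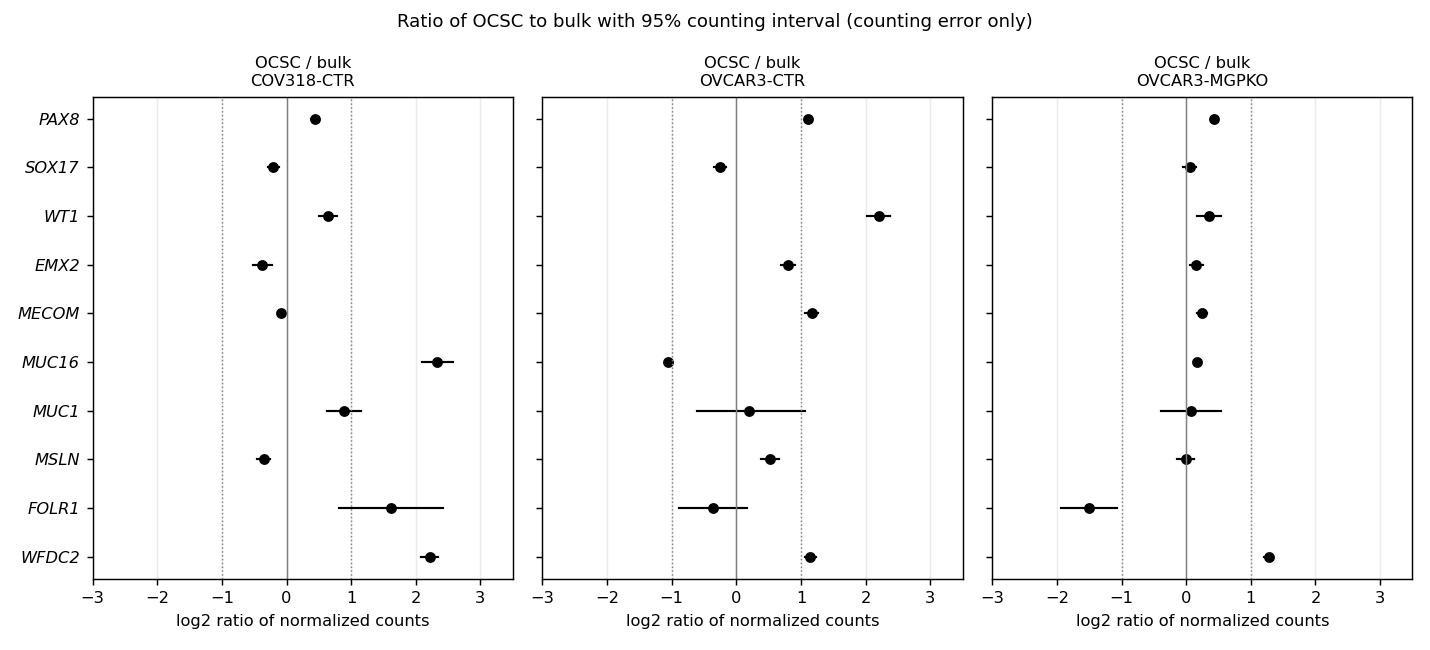
log2 ratio of OCSC to bulk for the 10 genes in COV318-CTR, OVCAR3-CTR and OVCAR3-MGPKO, with bars for the 95% counting interval and dotted lines at a size of 1. WFDC2 lies right of the upper line in all 3 panels, and MUC16 lies at 2.32 in COV318-CTR and -1.06 in OVCAR3-CTR.

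OVCAR3-CTR and COV318-CTR differed from each other in 7 of the 10 genes in bulk, 4 higher and 3 lower in OVCAR3-CTR, against 53.6% of all genes, 25.4% higher and 28.2% lower. In OCSC they differed in 6, 4 higher and 2 lower, against 54.7%, 25.3% higher and 29.4% lower. The lines also differed in passage and, in bulk, in medium, and these cannot be told apart from the line. MUC16 set the lines apart most, with a normalized count of 13681 against 123 in bulk, a log2FC of 6.78 (6.60 to 6.99), and 6566 against 620 in OCSC, a log2FC of 3.40 (3.26 to 3.55). PAX8 was higher in OVCAR3-CTR in both cultures, by 1.23 (1.18 to 1.28) and 1.89 (1.84 to 1.95), and so was WFDC2, by 2.74 and 1.68. MECOM was lower in OVCAR3-CTR, with log2FC of -2.68 (-2.77 to -2.59) and -1.44 (-1.49 to -1.38), and MUC1 likewise, with -2.39 (-3.16 to -1.78) and -3.08 (-3.66 to -2.61). FOLR1, at 2.52, and MSLN, at -1.18, passed the threshold only in bulk, and EMX2, at 1.80, only in OCSC. WT1 was under the threshold in bulk at -0.60 and just under it in OCSC at 0.96, and it passed in OCSC with TMM factors, at 1.01. SOX17 was nearest between the lines, at -0.18 in bulk and -0.23 in OCSC. Of the antigens, MUC16 and WFDC2 were thus higher in OVCAR3-CTR and MUC1 in COV318-CTR in both cultures, whereas FOLR1 and MSLN passed in 1 culture each. Epithelial markers differed too, with 10 of 12 higher in OVCAR3-CTR in bulk and 12 in OCSC, and 6 of 8 mesothelial markers were lower in each culture. Their part was not tested.

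Ordered over all 8 libraries by normalized count, PAX8 was highest in OVCAR3-CTR OCSC at 18466, and every neighbouring pair in its order differed beyond counting error except the COV318-MGP libraries, both at 0. SOX17 ranged only from 1654 to 2792 across the 6 libraries outside COV318-MGP, where OVCAR3-CTR bulk at 2456 and COV318-CTR OCSC at 2425 did not differ, nor did OVCAR3-MGPKO OCSC at 1716 and OVCAR3-MGPKO bulk at 1654. MECOM was highest in COV318-CTR bulk at 10625 and lowest in COV318-MGP OCSC at 554. MUC16 was highest in OVCAR3-CTR bulk at 13681, and MUC1 in COV318-CTR OCSC at 308. For MUC1 the lowest 4 libraries, 2 OVCAR3-CTR and 2 COV318-MGP at 14.3 to 35.5, did not differ from one to the next in the order, but the highest of them lay below OVCAR3-MGPKO bulk at 81.6 beyond counting error. The COV318-MGP libraries took the last places for all 10 genes.

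For each member, genes from the 2 with the most similar pattern over the 8 libraries are given, by the root mean square (RMS) difference of the mean-centred log2(normalized count + 1) among 13696 genes. PAX8 was nearest to S100A6, at an RMS difference of 0.489, and to KRT19 at 0.734. SOX17 was nearest to H2BC10 (0.364) and H2BC9 (0.462), histone genes, of which H2BC10 had 3707 and 1143 counts in COV318-CTR and none in COV318-MGP. WT1 was nearest to LRRN2 (0.307) and to its own antisense gene WT1-AS (0.421), EMX2 to CYBA (0.280) and ARHGEF16 (0.288), and MECOM to ZNF816 (0.273) and SNX19 (0.312). For MSLN, CCL28 was among these at 0.556. MUC16 was nearest to SCNN1A (0.710) and LAD1 (0.788), MUC1 to PCDHGB7 (0.422) and SDC4 (0.491), FOLR1 to GALNT3 (0.549) and RIMS1 (0.578), and WFDC2 to BTC (0.509) and EHF (0.618). All of these genes were lower in COV318-MGP than in COV318-CTR in both cultures. This follows from how they were chosen, since the pattern matched includes those libraries, in which every member was lower.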

How the data were processed

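The paper names TruSeq preparations with poly-A enrichment, with ribosomal RNA depletion and with transcriptome capture. Which of them was used for which library is not given in the sources used here. The authors sequenced the libraries as paired reads and aligned them to hg38 with STAR (2.7.5c per the labels). They deposited each library's raw count of reads by gene without normalization, and the gene annotation and strand setting are not given in the sources used here. Other files deposited by the authors hold a normalized signal, in which each count is divided by its library's DESeq2 median-of-ratios size factor. Size factors recomputed over the 15518 genes with counts in all 8 libraries gave the same values, to a relative difference of at most 7.5e-10.

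log2FC was computed on log2(normalized count + 1) and called at a size of at least 1. Ratios of 2 counts were given an exact Clopper-Pearson interval of 95%, and 3 counts were the floor. Because each condition had 1 library, no test was run. The script was tested on simulated data. Gene positions came from GENCODE 44, and promoters from the RefSeq table of GRCh38.p14.

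The members and the 7 gene lists (other Mullerian factors and paralogs, other antigens, and epithelial, mesothelial, fibroblast, blood and endothelial, and HEK293 lineage markers) were chosen with earlier results of these data known. Besides the members and MGP, the rule named the 2 genes most similar to each member, those overlapping it or nearest on each side, and up to 4 genes per list and line called alike in bulk and OCSC. KRT8, KRT18, PAX2, PAX5, SOX7, ESR1, EMX1, LHX1, WNT4, UPK1B, ITLN1, PRG4, BNC1, STEAP1 and CD276, and WNT7A in OVCAR3, were named after their values were seen. So were HOXA10, OVGP1, PGR, HP, GRHL2, DCN, PDGFRB, THY1 and POSTN. A gene that the rule named is not reported here. EPCAM and PAX2 are each in 2 lists. Alternatives were edgeR's TMM factors, a common library total, size factors within a comparison, a pseudocount of 5, a minimum of 10 counts, a log2FC of at least 2, and a counting interval that excludes no change. Software was R 4.3.3 and edgeR 4.0.16 (TMM only), and scipy 1.17.1, pandas 2.3.3, numpy 2.4.6 and matplotlib 3.10.9 under Python 3.11.15.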

Additional observations from a re-analysis of the deposited data

Results flagged for a closer look

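MUC16 differed in opposite directions between OCSC and bulk in the control lines. Its log2FC was 2.32 (2.09 to 2.57) in COV318-CTR, from 229 counts in bulk and 417 in OCSC, and -1.06 (-1.10 to -1.01) in OVCAR3-CTR, from 8872 and 7034. The difference between the lines was not tested, since each value rests on 1 library per culture. In OVCAR3-MGPKO the log2FC was 0.16 (0.12 to 0.21).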

How the results depend on the processing

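No paired analysis was possible because each condition had 1 library and no replicate number, and leaving out a replicate was not possible for the same reason. In COV318-MGP against COV318-CTR all 10 genes were called lower in both cultures under each alternative, except that FOLR1 was not called in bulk at a log2FC of at least 2. TMM factors and size factors within the comparison added WT1 for OVCAR3-CTR against COV318-CTR in OCSC, 7 members in place of 6. For OVCAR3-MGPKO against OVCAR3-CTR in bulk, the 1 member called became 2 with a common library total. This total also added MUC1 for OCSC against bulk in COV318-CTR, 4 members in place of 3. With a log2FC of at least 2, the members called became 0 for OVCAR3-MGPKO against OVCAR3-CTR in bulk and in OCSC, 0 for OCSC against bulk in COV318-MGP and in OVCAR3-MGPKO, 1 for OCSC against bulk in OVCAR3-CTR, and 2 for OVCAR3-CTR against COV318-CTR in OCSC. At this threshold FOLR1 also dropped out for OCSC against bulk in COV318-CTR, which left 2 members. PAX8 and MSLN dropped out for OVCAR3-CTR against COV318-CTR in bulk. For OCSC against bulk in COV318-MGP the 4 members called became 1 with a pseudocount of 5, with at least 10 counts and with an interval that excludes no change, each time MECOM. Of 494 member log2FC values under the alternatives, 449 stayed within the counting interval, 45 moved further and 0 of the called ones changed sign. The 449 include values that could not move. A minimum of 10 counts leaves the log2FC of a kept member unchanged, and intervals of members with 0 counts in a library are open on at least 1 side. The sign changed only in 5 values near 0, for WT1, MECOM, SOX17, MUC1 and MSLN.

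Scaling to a common total moved the median of all genes by over 0.1 in 4 comparisons, to 0.24 and 0.12 in COV318-MGP and OVCAR3-MGPKO against control in bulk, to -0.17 for OCSC against bulk in COV318-MGP, and to -0.26 for OVCAR3-CTR against COV318-CTR in OCSC. For OCSC against bulk in COV318-MGP it also turned 2181 higher and 2032 lower genes into 1707 and 2885. With a log2FC of at least 2, the genes called among all tested went from 3044 to 11126 per comparison down to 683 to 5968. Depth limits the genes with few reads, chiefly FOLR1 in COV318 and MUC1 in OVCAR3-CTR.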
